A study of Rattus norvegicus with 12 samples.

Results

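The genes described here encode 10 proteins of the acute-phase response and the clotting system, A2m, Hp, Cp, Fga, Fgb, Fgg, Serpina3n, Orm1, Tf and Ptx3, and were chosen by symbol. Of these 10 genes, 9 were listed once in each of the 2 deposited tables, which hold 22132 and 32623 entries, and Serpina3n was listed in neither. RNA was sequenced from kidneys of 12 wild-type male SD (Sprague-Dawley) rats, 3 in each of 4 groups, which the study bought at 8 weeks of age. Adenine rats were given a daily dose of 220 mg/kg adenine through a stomach tube over 3 weeks, a chemical injury of the tubules, and control rats were given saline over the same time. In the UUO (unilateral ureteral obstruction) group the left ureter was tied off 2 weeks before the kidneys were taken, and the sham group underwent the operation without ligation. Which kidney of the UUO rats was sampled is not given in the sources used here. Whole tissue was used, so fewer cells of a type and less RNA per cell cannot be told apart. The comparisons ask how these genes differed between adenine and control and between UUO and sham kidneys.

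The acute-phase response is the change in plasma proteins that follows injury or infection, and it is best known from the liver, where interleukin 6 and related cytokines act through the gp130 receptor and STAT3. Fibrinogen, the precursor of the fibrin clot, is a hexamer with a pair of each of the alpha, beta and gamma chains, which Fga, Fgb and Fgg encode. Hepatocytes make the bulk of plasma fibrinogen and most of the other proteins, while injured tubules, phagocytes and stromal cells are known as local sources of some of them.

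The 3 fibrinogen genes are neighbors on chromosome 2 in RefSeq, and the 250 bases upstream of each start (the first of 2 starts for Fga) are shown because the levels of these genes in reference kidneys lay far apart, as described below. All are written 5′ to 3′ on the strand of the gene from build GRCr8, with capitals for CTGGGAA, the core of an element through which STAT3 is known to act at acute-phase genes. The stretches are chr2:170671919-170672168 on the plus strand for Fga, chr2:170700876-170701125 on the minus strand for Fgb and chr2:170652833-170653082 on the plus strand for Fgg.
Fga: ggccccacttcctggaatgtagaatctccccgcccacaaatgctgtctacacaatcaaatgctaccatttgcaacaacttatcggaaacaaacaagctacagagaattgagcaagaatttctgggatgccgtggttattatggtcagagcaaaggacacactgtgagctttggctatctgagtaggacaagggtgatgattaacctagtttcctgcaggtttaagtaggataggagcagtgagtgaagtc
Fgb: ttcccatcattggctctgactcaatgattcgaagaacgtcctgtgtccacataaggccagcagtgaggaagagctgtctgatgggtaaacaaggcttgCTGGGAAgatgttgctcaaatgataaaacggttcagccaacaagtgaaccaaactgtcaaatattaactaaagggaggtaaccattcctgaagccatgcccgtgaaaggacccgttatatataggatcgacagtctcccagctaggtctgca
Fgg: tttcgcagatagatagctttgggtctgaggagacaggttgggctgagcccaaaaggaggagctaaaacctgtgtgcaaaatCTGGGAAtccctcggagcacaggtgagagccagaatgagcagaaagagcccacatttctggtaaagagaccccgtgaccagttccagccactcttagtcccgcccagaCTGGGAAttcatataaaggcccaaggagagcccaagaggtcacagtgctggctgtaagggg

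Counting back from the start, CTGGGAA began at base -152 in Fgb and at bases -169 and -61 in Fgg. It was absent from both windows that RefSeq gives for Fga. On either strand it was found in 11.3% of 33469 rat windows of the same length, 250 bases before to 50 after a start. Windows were given for 8 of the 10 genes, not for A2m or Hp, and 3 of the 8 held CTGGGAA, namely Fgb, Fgg and Serpina3n. The STAT motif TTCNNNGAA, where N is any base, was found in Fga, Fgb and Serpina3n, against 8.87% of all windows, and in Serpina3n it overlapped CTGGGAA. The C/EBP motif TTNNGNAA was in 7 of the 8 (41.3% of all windows), missing from Fgg alone, and the NF-kB motif (GGGA and TTCC with 2 bases of any kind between them) was in 0 of the 8 (1.3%). A match of letters is a description and does not show that a factor binds there.

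Levels are given as FPKM, in which fragments are divided by the length of the transcript and the mapped fragments of the sample, so genes can be set side by side. Each table was fitted on its own with limma, a linear model per gene with variances moderated across genes, on log2(FPKM + 0.1) for entries that reached an FPKM of 0.5 in at least 3 of 6 samples. A gene was called when its absolute log2 fold change was 2 or more and its p, adjusted by Benjamini-Hochberg over all tested entries, was under 0.05. The added 0.1 brings the fold change of a low gene nearer to 0. The 3 samples per group are separate rats, and SD values below are over n = 3.

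In the adenine model 7 of the genes could be tested and 4 rose, A2m, Fgb, Fgg and Cp, where 10.7% of 15029 tested entries were called upward. In the UUO model 8 could be tested and 5 rose, A2m, Fgb, Fgg, Cp and Ptx3, against 13.2% of 15043. None fell in either model, where 5.03% and 4.21% of entries were called downward. By adjusted p alone 7 of 7 and 7 of 8 were higher, against 39.6% and 56.1% of entries. A2m, Fgb and Fgg passed the minimum of the adenine table, and A2m, Fgg and Ptx3 that of the UUO table, only through the diseased kidneys, so these counts describe the genes and do not weigh for a direction. The tested members had median log2 fold changes of 2.87 with adenine and 2.96 with UUO, and all tested entries 0.30 and 0.62. Median-of-ratios scaling, which divides each library by its median ratio to the mean over libraries, brought the medians of all entries to 0.0056 and 0.023. With it, 1287 entries rose and 970 fell in the adenine model in place of 1604 and 756, and 1211 rose and 973 fell in the UUO model in place of 1980 and 633.

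**Figure D1:**
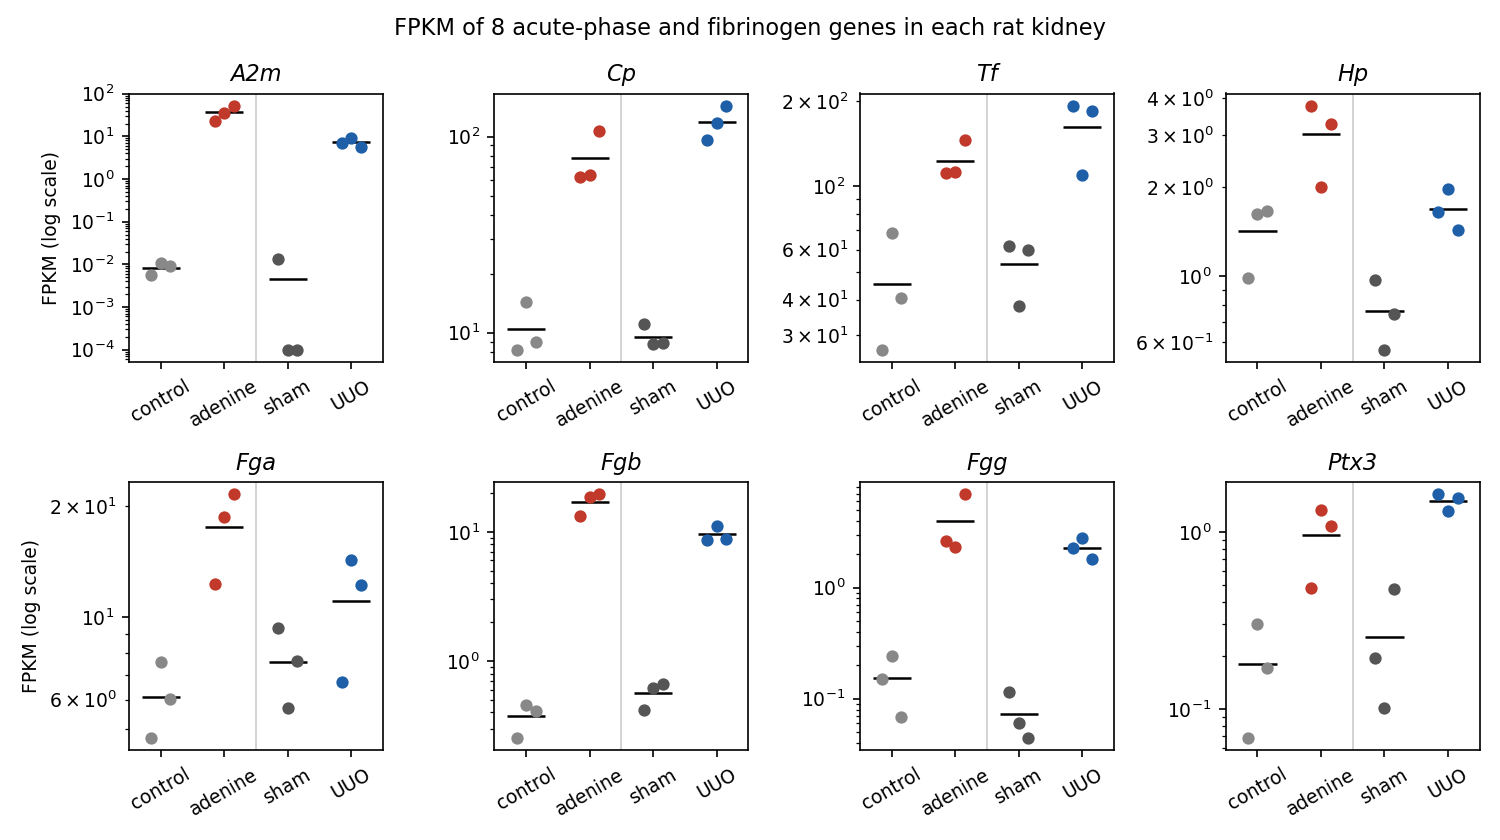
FPKM on a logarithmic axis (vertical) of 8 genes in each rat, by group (horizontal), where points are rats and bars are group means. The 3 diseased kidneys lay above all 3 of their reference group in every panel except Fga in the sham and UUO groups, and A2m spanned the widest range, from 0.0001 in 2 sham rats to 52.3 in an adenine rat.

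A2m encodes alpha-2-macroglobulin, a broad inhibitor of proteases and in rats a classic acute-phase protein. Its FPKM was 0.00549, 0.0105 and 0.00896 in the control rats and 22.7, 34.5 and 52.3 in the adenine rats. In the sham rats it was 0.0131 in the first and at the lowest value of the table, 0.0001, in the other two, and 7.03, 9.09 and 5.63 in the UUO rats. The gene was thus near 0 in every reference kidney and above 5 FPKM in every diseased one. With adenine the log2 fold change was 8.32 ± 0.31 (SE), rank 8 of 15029, with a limma adjusted p = 2.38e-05. With UUO it was 6.11 ± 0.27 (SE), rank 24 of 15043, with a limma adjusted p = 1.32e-05. Because the reference values are near 0, these sizes depended on the added constant, and with constants of 1 and 0.01 the gene was still called in both models.

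Fga was the only fibrinogen chain gene well above 1 FPKM in kidneys without disease. Its FPKM was 4.72, 7.60 and 6.03 in control rats and 9.39, 5.69 and 7.65 in sham rats. Fgb, in contrast, was at 0.253, 0.457 and 0.410 in control rats and 0.418, 0.619 and 0.665 in sham rats. Fgg lay between 0.0687 and 0.243 in control rats and between 0.0441 and 0.114 in sham rats. In every one of these 6 kidneys Fga was the highest of the 3 chains and Fgg the lowest.

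In adenine kidneys FPKM of Fgb was 13.2, 18.6 and 19.5, and in UUO kidneys 8.70, 11.1 and 8.83. On the log2 scale Fgb rose by 5.19 ± 0.25 (SE) with adenine (limma adjusted p = 2.90e-05) and 3.86 ± 0.22 with UUO (limma adjusted p = 2.36e-05). FPKM of Fgg was 2.62, 2.31 and 6.93 in adenine kidneys, where the third rat stood apart, and 2.27, 2.81 and 1.79 in UUO kidneys. Fgg rose by 3.88 (SE 0.49, limma adjusted p = 0.000694) and 3.79 (SE 0.31, limma adjusted p = 8.45e-05), and with an added constant of 1 its 1.99 and 1.61 no longer reached the fold threshold. All diseased kidneys lay far above all reference kidneys for both genes.

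FPKM of Fga was 12.3, 18.7 and 21.5 in adenine kidneys, each above every control kidney. The log2 fold change was 1.49 (SE 0.26, limma adjusted p = 0.00272), which did not reach the fold threshold. In UUO kidneys FPKM of Fga was 6.72, 14.3 and 12.2, and the first UUO rat lay below 2 of the 3 sham rats. This log2 fold change was 0.50 (95% confidence interval -0.25 to 1.25, limma adjusted p = 0.189), and it turned to -0.090 with median-of-ratios scaling. Without the first UUO rat it was 0.83 (limma adjusted p = 0.0228), and without the second 0.29 (limma adjusted p = 0.461), so the value rested on single rats.

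The balance of the chains therefore differed between reference and diseased kidneys. Of the summed FPKM of the 3 genes, Fga held between 91.6% and 92.6% in control rats and between 89.3% and 94.6% in sham rats. In adenine rats Fga held 43.8% to 47.2% and Fgb 40.7% to 47.0%, and in UUO rats 38.0% to 53.5% and 38.6% to 49.2%. Expressed as a ratio, Fga exceeded Fgb by 16.7 ± 1.99 times (SD, n = 3) in control and 14.4 ± 7.10 times in sham kidneys. The ratio was 1.01 ± 0.0847 in adenine and 1.15 ± 0.332 in UUO kidneys, and the ranges of diseased and reference kidneys did not overlap in either table. Fgg held at most 2.93% of the sum in reference kidneys and 5.84% to 14.4% in diseased ones. The smallest two-sided p of an exact permutation test of 3 rats against 3 is 0.1, so these ratios are given by their ranges. The sum of the chains was 5.13 to 8.30 FPKM in control, 28.2 to 48.0 in adenine, 6.37 to 9.92 in sham and 17.7 to 28.2 in UUO kidneys.

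**Figure D2:**
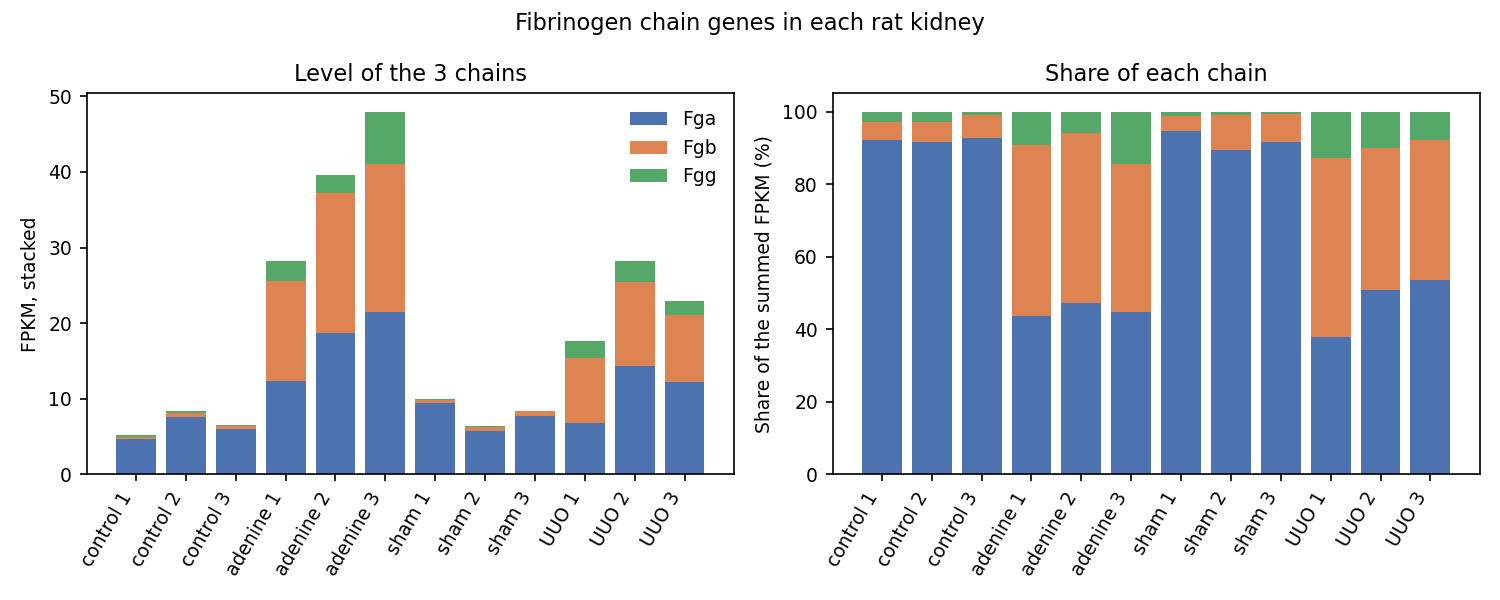
Stacked bars of Fga, Fgb and Fgg in each of the 12 rats (horizontal), as FPKM (left panel, vertical) and as a share in percent of their sum (right panel, vertical). Fga holds at least 89.3% of the sum in all control and sham rats and at most 53.5% in adenine and UUO rats, where Fgb takes up most of the rest.

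Cp encodes ceruloplasmin, the copper-carrying ferroxidase of plasma. Its FPKM was 8.18, 14.3 and 8.98 in control rats and 62.4, 64.0 and 106 in adenine rats. In sham rats it was 11.04, 8.72 and 8.80 and in UUO rats 96.1, 117 and 144. Cp was the most abundant of the called genes, and every diseased kidney was over 60 FPKM while no reference kidney reached 15. On the log2 scale Cp rose by 2.87 ± 0.28 (SE) with adenine (limma adjusted p = 0.000266) and 3.62 ± 0.17 with UUO (limma adjusted p = 1.42e-05). Cp was called under all 15 other settings of the fit tried in each model.

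Tf encodes transferrin, the iron carrier of plasma, which in the liver is counted among the proteins that fall in the acute phase. Its mean was the highest of the 9 listed genes in every group, although Cp exceeded it in the second UUO rat. Tf was at 26.7, 68.7 and 40.4 FPKM in control rats and 61.8, 38.0 and 59.6 in sham rats. Levels were 111, 113 and 146 in adenine rats and 192, 109 and 184 in UUO rats, above all reference rats. The log2 fold changes were 1.54 ± 0.33 (SE) with adenine (limma adjusted p = 0.00670) and 1.59 ± 0.27 with UUO (limma adjusted p = 0.00190), both below the fold threshold. In UUO kidneys the ranges of Tf and Cp overlapped, so the order of these neighbors was not resolved there.

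Hp encodes haptoglobin, which binds free hemoglobin. Its FPKM was 0.983, 1.63 and 1.66 in control rats and 3.77, 2.01 and 3.27 in adenine rats, and 0.971, 0.565 and 0.747 in sham rats and 1.65, 1.98 and 1.43 in UUO rats. The groups did not overlap, yet the log2 fold changes were small, at 1.02 (SE 0.31, limma adjusted p = 0.0277) and 1.07 (SE 0.27, limma adjusted p = 0.00981). With median-of-ratios scaling they were 0.74 and 0.52, with adjusted p of 0.0896 and 0.144.

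Ptx3 encodes pentraxin 3, which phagocytes and stromal cells are known to release on inflammatory signals. Its FPKM was 0.0682, 0.302 and 0.170 in control rats and 0.484, 1.33 and 1.09 in adenine rats, where only 2 of 6 samples reached the minimum and the gene was not tested. In the fit without a minimum the log2 fold change was 1.92 (SE 0.49, limma adjusted p = 0.0203). FPKM was 0.193, 0.101 and 0.474 in sham rats and 1.64, 1.32 and 1.55 in UUO rats, with no overlap. The log2 fold change in the UUO model was 2.30 (SE 0.42, limma adjusted p = 0.00251), and it was 1.82 with median-of-ratios scaling and 1.96 without the second sham rat, both under the fold threshold. Orm1, which encodes alpha-1-acid glycoprotein, was listed at 0 in all control rats and at 0.0366, 0 and 0.0870 FPKM in adenine rats. In the other table Orm1 was at the lowest value, 0.0001, in all 6 rats, and it was tested in neither model.

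Taking the 9 listed genes, every adenine rat lay above every control rat for 8 of them (Orm1 was the exception), and every UUO rat above every sham rat for 7 (Fga and Orm1 were the exceptions). Groups parted upward in this way for 45% (adenine) and 60% (UUO) of all tested entries. Leaving Orm1 aside, the second control rat had the highest value of its group for 7 of 8 genes and the first control rat the lowest for 7 of 8. The third adenine rat was highest for 6 of 8, and the first sham rat likewise for 6 of 8. The UUO rats showed less of an order, as the second was highest for 5 of 8 and lowest for 2. Such counts were not made over all genes.

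**Figure D3:**
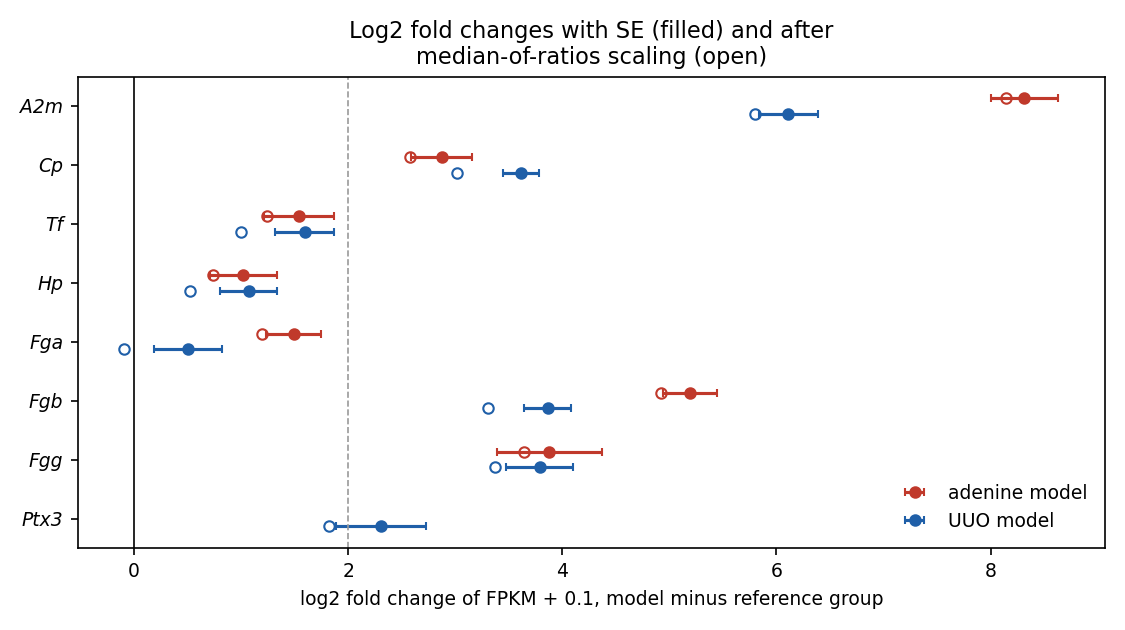
Log2 fold change of FPKM + 0.1 (horizontal), adenine against control and UUO against sham, for each gene (vertical), with filled points and SE bars for the deposited FPKM and open points after median-of-ratios scaling. The dashed line marks the fold threshold of 2, and A2m is farthest to the right in both models at 8.32 and 6.11.

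The 2 models share no samples, and the difference of their log2 fold changes was tested gene by gene for symbols listed once and tested in both. This test called 389 of 13486 genes (2.88%) at an adjusted p under 0.05 and a difference of at least 2. Among the 7 members tested in both, A2m differed, with a log2 fold change higher by 2.20 in the adenine model (SE 0.42, adjusted p = 0.00256 from the limma fits). This difference was 1.904 without the third adenine rat and 1.82 (adjusted p = 0.0604) with an added constant of 0.01, and neither passed. For Fgb the difference was 1.33 (SE 0.33, adjusted p = 0.0113), below the threshold of size. The differences were 0.99 (SE 0.41) for Fga, 0.091 (SE 0.58) for Fgg, -0.74 (SE 0.33) for Cp, -0.050 (SE 0.41) for Hp and -0.055 (SE 0.43) for Tf. Their adjusted p lay between 0.0853 and 0.943, which does not show that these genes responded alike.

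Likeness of pattern was measured as the root mean square difference of log2(FPKM + 0.1) over the 12 rats, each table centered on its own mean, among the 13486 genes tested in both. The genes nearest to A2m were LOC100911545 (0.311), Lcn2 (0.598) and Mmp12 (0.687). LOC100911545 was not found by symbol in the reference table used for names. Nearest to Fgb were Cd33 (0.279), Lif (0.315) and LOC108348074 (0.320), and nearest to Fgg were C1qc (0.297), Mnda (0.337) and Cd300lf (0.355). For Fga these were Lgmn (0.278) and Prdm11 (0.290), followed by Atp7a. The fibrinogen genes were not each other's nearest genes. Fgg ranked 138 of 13485 by nearness to Fgb, while Fga ranked 3186. These ranks describe 12 rats in 4 groups and carry no test.

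Other genes of the positive acute phase were taken from a list of 25, of which 13 were tested with adenine and 14 with UUO. In the adenine model 9 rose and 1 fell, and in the UUO model 8 rose and 1 fell, with median log2 fold changes of 2.82 and 2.74. Over all tested entries, 10.7% and 13.2% were called upward and 5.03% and 4.21% downward. Lcn2 encodes lipocalin 2, an iron-siderophore binding protein also known as a marker of tubular injury, and was at 3.82 ± 2.13 FPKM in control, 489 ± 78.1 in adenine, 6.12 ± 2.10 in sham and 383 ± 57.8 in UUO kidneys. C3, the central complement component, rose by a log2 fold change of 4.24 and 4.11, and Lbp, which encodes the lipopolysaccharide binding protein, by 3.16 and 3.96. Hpx, which encodes the heme carrier hemopexin, rose in the UUO model (log2 fold change 2.44, limma adjusted p = 0.000299) and was at 0.44 in the adenine model (limma adjusted p = 0.157). The difference of the models for Hpx was -1.99 (SE 0.37, adjusted p = 0.00236), just under the threshold of size. Crp, the gene of C-reactive protein, was at 0.0876 ± 0.0334 FPKM in adenine and 0.0789 ± 0.0724 in UUO kidneys and was not tested. Serpinf2, which encodes the plasmin inhibitor alpha-2-antiplasmin, was the gene that fell in both models, from 152 ± 27.4 to 9.47 ± 5.83 FPKM with adenine and from 148 ± 7.85 to 14.5 ± 6.13 with UUO. Serpinf2 is named after its values were seen.

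Of 9 genes of the negative acute phase, 2 were tested in the adenine model, of which 1 fell, and 4 in the UUO model, of which 2 fell. The share called downward among all tested entries was 5.03% with adenine and 4.21% with UUO. With median-of-ratios scaling 2 fell in each model. Gc, which encodes the vitamin D binding protein, fell in both, and Rbp4, which encodes the retinol carrier of plasma, fell in the UUO model. Serpina6, which encodes the corticosteroid carrier of plasma, went the other way in the UUO model, from 0.298 ± 0.0307 to 1.40 ± 0.386 FPKM (log2 fold change 1.89, limma adjusted p = 0.00110, under the fold threshold). Serpina6 reached the minimum in no sham kidney, so once tested it could hardly be lower. Gc, Rbp4 and Serpina6 are named after their values were seen. Alb, which encodes albumin, was at 0.166, 0 and 0.0776 FPKM in control rats. Its mean was 0.503 ± 0.854 in adenine rats, most of it from the first at 1.49. It was at the lowest value in all sham rats and at 0.0498 ± 0.0862 in UUO rats. Of 12 hepatocyte markers 11 were listed, and F2, Cyp2c11 and Apoc3 had levels over 5 FPKM in reference kidneys. None of the 3 tested with adenine or the 4 tested with UUO was called upward, against 10.7% and 13.2% of all tested entries. Those tested with adenine were F2, Cyp2c11 and Apoc3. Cyp2c11 reached the minimum in no diseased kidney, so once tested it could hardly be higher, and most markers low in reference kidneys were not tested. The lack of upward calls therefore describes the tested markers and does not weigh for a direction. The summed FPKM of the list was 42.6 to 137 in control, 6.58 to 9.97 in adenine, 39.4 to 130.2 in sham and 2.58 to 5.68 in UUO kidneys. In reference kidneys most of this sum came from F2, Cyp2c11 and Apoc3. Serpina1, a marker named after its values were seen, was low and not tested, yet higher in every diseased kidney than in its reference group. Its mean FPKM was 0.0367 in control, 0.462 in adenine, 0.0388 in sham and 0.497 in UUO kidneys. Apoa1, the main apolipoprotein of HDL, was at 0.432 ± 0.113 FPKM in control, 0.358 ± 0.199 in adenine, 0.1997 ± 0.138 in sham and 0.746 ± 0.101 in UUO kidneys. Its log2 fold change in the UUO model was 1.61 (limma adjusted p = 0.0144), with no overlap of the groups, under the fold threshold. Apoa1 too reached the minimum in no sham kidney, so once tested it could hardly be lower. In every diseased kidney Alb lay below Fgb, Cp and A2m, and the source of the RNA was not tested.

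Cytokine signaling upstream of the acute phase was described with 25 genes, of which 24 and 22 were tested. In the adenine model 9 rose and 1 fell, and in the UUO model 10 rose, with median log2 fold changes of 1.58 and 1.87. All tested entries were called upward in 10.7% and 13.2% and downward in 5.03% and 4.21%. With median-of-ratios scaling 8 rose and 2 fell with adenine, and 7 rose and 2 fell with UUO. Among the genes that rose, Il6, Osm, Lif and Tnf with adenine and Lif, Tnf and Il11 with UUO reached the minimum in no reference kidney, so once tested they could hardly be lower, and the counts describe them without weighing for a direction. Il6, the gene of interleukin 6, was at 0.0280 ± 0.0485 FPKM in control and 0.662 ± 0.0939 in adenine kidneys, a rise of 2.63 (limma adjusted p = 0.00135). It was at the lowest value in all sham rats and at 0.790 ± 0.312 in UUO rats, where it was not tested. Lif, a related cytokine, rose by 4.63 and 3.62. Osm, which encodes oncostatin M, was tested in the adenine model alone and rose there by 2.97. Osmr, its receptor subunit, rose by 3.51 and 2.66. Il6st, the gene of the shared receptor gp130, rose by 2.44 in the adenine model and was at 1.89 in the UUO model (limma adjusted p = 3.54e-05), under the fold threshold. Socs3, which STAT3 induces and which dampens the same pathway, rose by 5.09 and 4.55, from 0.871 ± 0.369 to 31.5 ± 0.759 FPKM with adenine and from 1.01 ± 0.270 to 25.5 ± 3.82 with UUO. Stat3 itself was at log2 fold changes of 1.44 and 1.35, not called. Il1b, the gene of interleukin 1 beta, was at 1.43 in the adenine model and rose by 2.70 in the UUO model.

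Of the C/EBP factors, which act on acute-phase genes in the liver, Cebpb and Cebpd differed between the models. FPKM of Cebpb was 20.7 ± 3.74 in control and 7.64 ± 1.18 in adenine kidneys, a log2 fold change of -1.42 (limma adjusted p = 0.000692), and 2.86 ± 0.966 in sham and 6.40 ± 1.08 in UUO kidneys, a log2 fold change of 1.18 (limma adjusted p = 0.00776). The difference of the models for Cebpb was -2.60 (SE 0.33, adjusted p = 0.000271), and its control and sham levels stood farther apart than its adenine and UUO levels. Control and sham rats are in different tables and also differ by operation and time, so what lies behind this gap cannot be told apart. Cebpd was at 0.41 in the adenine model and rose by 2.41 in the UUO model, a difference of -2.01 (SE 0.38, adjusted p = 0.00269), just past the threshold of size. Cebpa, named after its values were seen, was at 1.68 with adenine (limma adjusted p = 0.00235) and 0.90 with UUO (limma adjusted p = 0.00555), higher in both and under the fold threshold.

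Coagulation and fibrinolysis genes decide how fibrin is formed and cleared. Of 29 such genes 21 were tested in the adenine model, where 7 rose and 4 fell, and 20 in the UUO model, where 6 rose and 4 fell, with median log2 fold changes of 1.09 and 1.06. Shares over all tested entries were 10.7% and 13.2% called upward and 5.03% and 4.21% called downward. Plau, which encodes urokinase, was at 260.5 ± 23.8 FPKM in control, 282 ± 33.6 in adenine, 505 ± 103 in sham and 457 ± 87.9 in UUO kidneys, with log2 fold changes of 0.11 and -0.14. Plat, which encodes tissue plasminogen activator, was at 1.22 and 1.76, and F3, the gene of tissue factor, at 1.00 and 1.01, none of them called. F2, which encodes prothrombin and is named after its values were seen, fell from 10.4 ± 0.947 to 0.481 ± 0.513 FPKM with adenine and from 12.2 ± 3.49 to 0.592 ± 0.231 with UUO. Plg, the gene of plasminogen, stayed under 0.1 FPKM on average in all groups. F13a1, a subunit of the factor that crosslinks fibrin, reached the minimum only through adenine kidneys and rose in that model (log2 fold change 4.90, limma adjusted p = 0.000633) and was not tested in the UUO model, where 1 rat was at 5.19 FPKM and the mean 1.86 ± 2.88. Tgm2 and Fn1, which encode a tissue transglutaminase and the fibrin-binding matrix protein fibronectin, rose by 2.81 and 5.46 in the adenine model and by 3.07 and 3.47 in the UUO model.

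Partners and receptors of these proteins were counted over 22 genes, of which 17 and 15 were tested and listed once. In the adenine model 8 rose and 2 fell, and in the UUO model 9 rose and 2 fell, with median log2 fold changes of 1.32 and 2.40. For comparison, 10.7% and 13.2% of all tested entries were called upward and 5.03% and 4.21% downward. With median-of-ratios scaling 8 rose with adenine and 5 with UUO. Itgam, Cd163 and Itgb3 reached the minimum in no reference kidney of either model, as did Hpx and F10 in sham and F7 and F10 in control kidneys among the lists above. Lrp1, the receptor that clears alpha-2-macroglobulin complexes, rose by 2.70 and 2.84. Cd163, the macrophage receptor for haptoglobin-hemoglobin complexes, rose by 5.97 and 4.33, and Hmox1, which encodes the heme-degrading enzyme, by 3.91 and 3.39. Itgam, an integrin subunit by which leukocytes bind fibrin, rose by 7.28 with adenine and 3.70 with UUO, a difference of 3.58 (SE 0.41, adjusted p = 0.000119). Tfrc, the receptor for transferrin, was lower in both without being called, at -0.94 and -1.32. Slc40a1, the iron exporter, was at 0.067 in the adenine model and had 2 entries in the UUO table, of which 1 was tested, at 0.64. Tnfaip6, whose product binds pentraxin 3, rose by 2.40 in the UUO model and was at 0.75 in the adenine model. Pzp, a relative of A2m named after its values were seen, fell by 4.05 and 4.63 on the log2 scale, from 28.8 ± 7.12 to 2.28 ± 2.21 FPKM with adenine and from 48.1 ± 9.18 to 2.08 ± 1.36 with UUO.

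**Figure D4:**
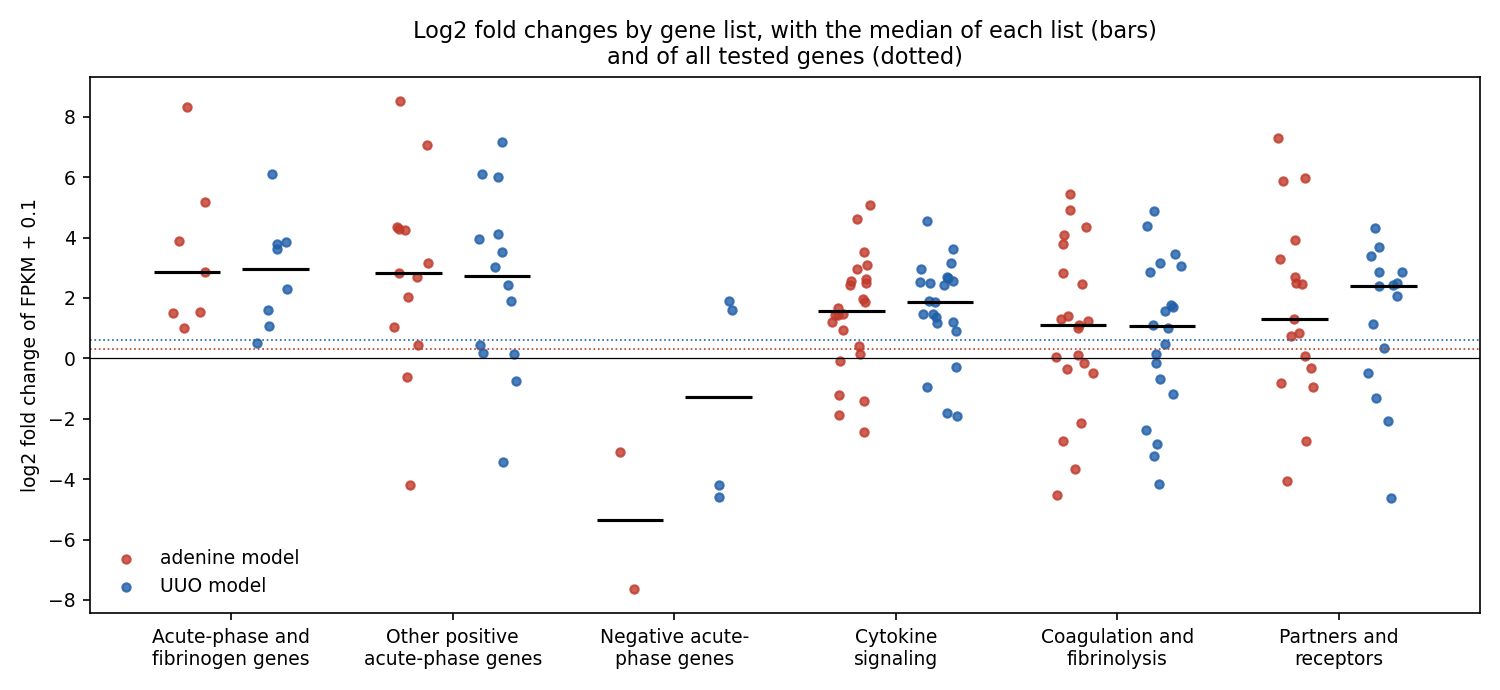
Log2 fold change of FPKM + 0.1 (vertical) of the tested genes of 6 lists that are listed once (horizontal), adenine against control and UUO against sham, where points are genes, bars the medians of the lists and dotted lines the medians of all tested genes, 0.30 and 0.62. All lists except that of the negative acute-phase genes have medians above these lines. The negative acute-phase genes, of which 2 and 4 were tested, have medians of -5.36 and -1.29 (-5.62 and -4.75 with median-of-ratios scaling), with the 4 UUO genes on both sides of 0. Those above 0, Serpina6 and Apoa1, passed the minimum only through UUO kidneys.

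Cell type markers went in both directions. Most tested markers of macrophages, neutrophils, fibroblasts and injured tubules rose, as did the called genes above, while markers of tubule segments had negative medians. The part of cell types in these results was not tested. All 9 macrophage markers rose with adenine and 8 with UUO, and their summed FPKM was 55.8 to 61.7 in control, 1202 to 1642 in adenine, 62.7 to 76.6 in sham and 720.3 to 1116 in UUO kidneys. Neutrophil markers summed to at most 2.50 FPKM in reference kidneys and 6.91 to 38.0 in diseased ones. Of these, 3 of 3 and 4 of 4 tested markers rose, where 10.7% and 13.2% of all tested entries were called upward. Elane stayed under the minimum in every rat and Mpo reached it in too few rats, so neither was tested in either model. FPKM of Mpo was 1.01 in the first control, 3.30 in the first adenine and 1.07 in the first UUO rat. Of 6 fibroblast markers 4 and 5 rose. Among the macrophage, neutrophil and fibroblast markers that rose, some reached the minimum in no reference kidney. These were Cd163 in both models, Csf3r and S100a8 with adenine, and Csf3r, Cxcr2 and Lum with UUO. Once tested they could hardly be lower, so these counts describe the markers without weighing for a direction. Of 7 proximal tubule markers 4 fell in each model, of 6 markers of the distal segments 2 and 5 fell, and kidney markers were present in all groups. Downward calls made up 5.03% (adenine) and 4.21% (UUO) of all tested entries. Injured tubule markers rose for 4 of 5 and 5 of 5 tested genes, a list that shares Lcn2 with the acute-phase list. No podocyte marker was called. Endothelial markers had 0 and 1 calls, platelet markers 1 rise in each model and 1 fall in the UUO model, and red cell markers 1 fall in the adenine model. Some calls of podocyte, endothelial, platelet and tubule markers depended on the scaling. With median-of-ratios scaling, 1 podocyte marker fell with UUO, 1 endothelial marker fell with adenine and none rose with UUO, and platelet markers had 1 rise and 1 fall with adenine and only 1 fall with UUO. The same scaling gave 5 falls of proximal tubule markers, 6 of distal markers and 4 rises of injured tubule markers with UUO.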

How the data were processed

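RNA from kidneys of 12 rats in 4 groups of 3 was sequenced on an Illumina NovaSeq after poly(A) selection. The authors deposited FPKM values per gene in 2 tables, control with adenine and sham with UUO. Trimming, alignment and transcript assembly were the authors' own. The submitters' processing notes name cutadapt 1.9, HISAT2 2.0.4 and StringTie 1.3.4d, and the genome build is not given in the sources used here, so the promoter windows are RefSeq's own for GRCr8, matched by symbol. No per-sample column was left out. FPKM carries no read counts. Ratios of low values between libraries were shared by at most 3.08% of entries, so depth is unknown, no counting error was calculated, and precision rests on 3 rats per group. FPKM summed to between 468389 and 630244 per library.

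Fits used limma 3.58.1 in R 4.3.3 with a variance trend, and other steps Python 3.11.15, numpy 2.4.6 and pandas 2.3.3. The study's DESeq2 test needs counts and was not run. The fit was tested on simulated data. The difference between the models was tested by its ratio to the combined standard error, with the degrees of freedom of both fits added. The genes and lists were chosen with earlier results of these data known. Genes are named by that choice or by their role in a list, and any others are said to be named after their values were seen. Lists count symbols with 1 entry. The values of 1 named gene are not reported here. Alternatives were other pseudocounts, filters and scalings, eBayes without a trend, a replicate block, no fold threshold and leaving out each rat. Replicate numbers do not pair the rats, which are different animals. Correlations of deviations between same-numbered rats were -0.123 to -0.0487 in the first table and 0.0500 to 0.105 in the second.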

Additional observations from a re-analysis of the deposited data

Results flagged for a closer look

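The response of some genes differed between the models by the test of the difference itself. For A2m the log2 fold change was higher in the adenine model by 2.20, at 8.32 against 6.11. For Itgam it was higher by 3.58. For Cebpb and Cebpd the adenine value minus the UUO value was -2.60 and -2.01, the latter just past the threshold of size. Cebpb had opposite signs in the models. Its mean FPKM was 20.7 in control and 2.86 in sham kidneys, and 7.64 in adenine and 6.40 in UUO kidneys. The gap between control and sham lies across the 2 tables and cannot be told apart from a difference between them. Differences under other settings are given for the members only, not for Itgam, Cebpb and Cebpd. These genes were looked at because they are members or were named by role, and 2.88% of all 13486 genes passed this test.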

How the results depend on the processing

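The direction was kept by all tested members under every alternative except Fga in the UUO model, whose log2 fold change was -0.090 with median-of-ratios scaling and -0.12 with quantile normalization. Without a fold threshold, 7 members were called with adenine, 7 with UUO and 2 (A2m and Fgb) for the difference between the models. With a pseudocount of 1, 3 members (A2m, Cp and Fgb) were called in each model, and with a pseudocount of 0.01 the number differing between the models was 0. Leaving out each rat in turn gave 4 to 4 called members in the adenine model, 4 to 5 in the UUO model and 0 to 1 differing between the models. Ptx3 lost its call without the second sham rat and A2m its difference without the third adenine rat. A replicate block left 4 and 5 members called and 1 differing, the same numbers as without it, although the numbers do not pair the rats. FPKM rescaled to the same sum added Ptx3 in the adenine model, for 5 members. The number of reads is unknown, so values near 0, such as those of A2m and Orm1 in reference kidneys, cannot be told from absence.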

Other observations

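In RefSeq, Fgg, Fga and Fgb follow one another, with Lrat before Fgg and Plrg1 after Fgb, and these flanking genes were looked up for their position after the values of the fibrinogen genes were known. Lrat, which encodes an enzyme that esterifies retinol, was at 0.153 ± 0.251 FPKM in control and 3.59 ± 1.29 in adenine kidneys, a log2 fold change of 4.25 (limma adjusted p = 0.00193). It was at 0.126 ± 0.0342 in sham and 1.40 ± 0.299 in UUO kidneys, a log2 fold change of 2.72 (limma adjusted p = 0.000283). Plrg1, which encodes a splicing factor, was at 17.3 ± 1.70 in control, 22.6 ± 1.29 in adenine, 24.04 ± 1.99 in sham and 35.2 ± 0.825 in UUO kidneys, with log2 fold changes of 0.39 and 0.55 that were not called. Of these 5 neighboring genes, Lrat, Fgg and Fgb were called in both models and Fga and Plrg1 in neither. Among all tested entries 10.7% with adenine and 13.2% with UUO were called upward. Lrat and Fgg passed the minimum of both models only through diseased kidneys, as did Fgb with adenine. Farther out, Sfrp2 fell with adenine (log2 fold change -2.68, limma adjusted p = 0.0331). With UUO it was not called (-2.50, limma adjusted p = 0.0716), and Map9 was called in neither model (0.41 and 1.26). Between Map9 and Lrat, Npy2r and Rbm46 were too low to be tested in either model. Mean FPKM of Rbm46 was 0.110 in control, 0.467 in adenine, 0.150 in sham and 0.607 in UUO kidneys. Dchs2 and LOC134485791, on the other side, were not listed.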
